A study of Mus musculus with 18 samples.

Results

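Whole brown adipose tissue (BAT) of 6 mice is described here, from the abundance of its transcripts to the genes that differed most among the animals. The members are the 6 samples whose source is labelled BAT tissue, of 18 samples in the series; the other 12 are adipocytes isolated from the inguinal and epididymal white depots and were used only to choose 1 row for each symbol. All 6 BAT samples came from wild-type male mice of strain C57BL/6 in the labels and C57BL/6NTac in the study's notes, numbered 1, 2, 5, 16, 17 and 18, which were 16 weeks old and had eaten a high-fat diet (HFD, 60% of calories from fat) for 12 weeks at 23 °C. No BAT of mice on another diet was analysed here, so no diet effect is given. A treatment field of the labels gives regular chow, whereas the titles and the design text give the HFD, and the samples were taken as HFD. BAT was frozen whole in liquid nitrogen, and its RNA therefore came from every cell type of the dissected pad, although the cell type field reads BAT adipocytes. Mice 1 and 5 were sequenced in lane 3 and mice 2, 16, 17 and 18 in lane 4.

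Brown adipocytes burn fatty acids and glucose for heat. Uncoupling protein 1 (UCP1), in the inner mitochondrial membrane, lets protons return to the matrix without ATP synthesis, so that the respiratory chain runs fast and its energy leaves as heat. The cells are packed with mitochondria, hold many small lipid droplets, make fatty acids as well as oxidize them, and lie in a dense bed of capillaries and sympathetic nerves. Interscapular BAT also lies against skeletal muscle, with which its adipocytes share a developmental origin.

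Expression is given as RPKM, a read count divided by transcript length in kilobases and by sequencing depth, so that levels of different genes can be compared. In the 6 samples, 27402247 to 42518483 reads were counted on transcript rows, and rows that overlap can count the same read, since these sums were 110% to 119% of the total that the RPKM values were scaled to. Of 52093 symbols, 12501 (24.0%) had a mean of at least 1 RPKM. Pearson's r of log2(RPKM + 0.1) between any pair of mice was 0.965 to 0.989 over these 12501 symbols, which are not independent replicates. For 8102 of them (64.8%), the span on the genome overlaps that of some other symbol, and a read in the overlap could belong to either. At the cutoff, Metrn (1.0007 RPKM) was the last symbol kept and Myef2/Gm9833 (0.9994 RPKM) the first left out. In the text below, values of single animals are given in the order of mice 1, 2, 5, 16, 17 and 18, means are given with the SD of the 6 mice, and the spread of a gene is the SD of its log2(RPKM + 0.1) over the 6 mice. Counts of listed genes that were highest or lowest in a mouse are descriptions. The share of all 12501 symbols with that mouse at that end was not counted. The median over all symbols ran from 0.20 below the 6-mouse mean in mouse 16 to 0.11 above it in mouse 17 (log2).

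The label of the tissue was first set against its markers. Ucp1 (chr8:85814247-85822355, plus strand of mm9) stood at 1794, 2004, 1466, 1764, 1983 and 2136 RPKM, a mean of 1858 ± 237 RPKM. Mouse 5 was lowest and mouse 18 highest, 1.46-fold apart. Cidea, a lipid droplet protein of brown adipocytes, averaged 520.1 ± 64.1 RPKM. Cox7a1, a subunit isoform of cytochrome c oxidase found in muscle and brown fat, averaged 360.1 ± 70.3 RPKM, and Dio2, the enzyme that activates thyroid hormone inside the cell, averaged 10.2 ± 3.33 RPKM. The adipocyte genes Fabp4, Adipoq and Plin1 averaged 5088 ± 452 RPKM, 221 ± 29.5 RPKM and 196 ± 22.7 RPKM. Of 20 genes in the list of brown adipocyte genes, 19 reached 1 RPKM, and Zic1, a transcription factor of the brown lineage, was just below it at 0.843 ± 0.2403 RPKM.

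Other cell types were present as well. Cdh5 (chr8:106625525-106668402, plus strand), the cadherin of endothelial junctions, stood at 54.7, 43.98, 34.5, 38.7, 47.7 and 53.9 RPKM, and 13 of 14 endothelial genes reached 1 RPKM. The erythroid genes Hba-a1 and Hbb-b1 averaged 431 ± 111 RPKM and 439 ± 90.3 RPKM, so that globin of red blood cells was among the abundant products. Macrophage markers were low but present in every animal, with Cd68 at 3.11 ± 0.813 RPKM, Csf1r at 2.099 ± 0.4899 RPKM and C1qa at 9.68 ± 2.27 RPKM. Smooth muscle and pericyte genes included Rgs5 at 105 ± 12.8 RPKM and Acta2 at 3.34 ± 0.603 RPKM, and Dcn and Col1a1 of fibroblasts averaged 10.2 ± 1.46 RPKM and 4.47 ± 1.28 RPKM. None of the 8 T cell genes, the 7 B cell genes or the 11 epithelial and mesothelial genes in the files reached 1 RPKM, and Krt8 and Krt14 had no read in any animal. The sympathetic enzyme Th had 1 mouse above 0, at 0.0144 RPKM, and Dbh had no read; axons carry little of the mRNA of the neuron they come from. In whole tissue, fewer cells of a type and less RNA per cell cannot be told apart.

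**Figure D1:**
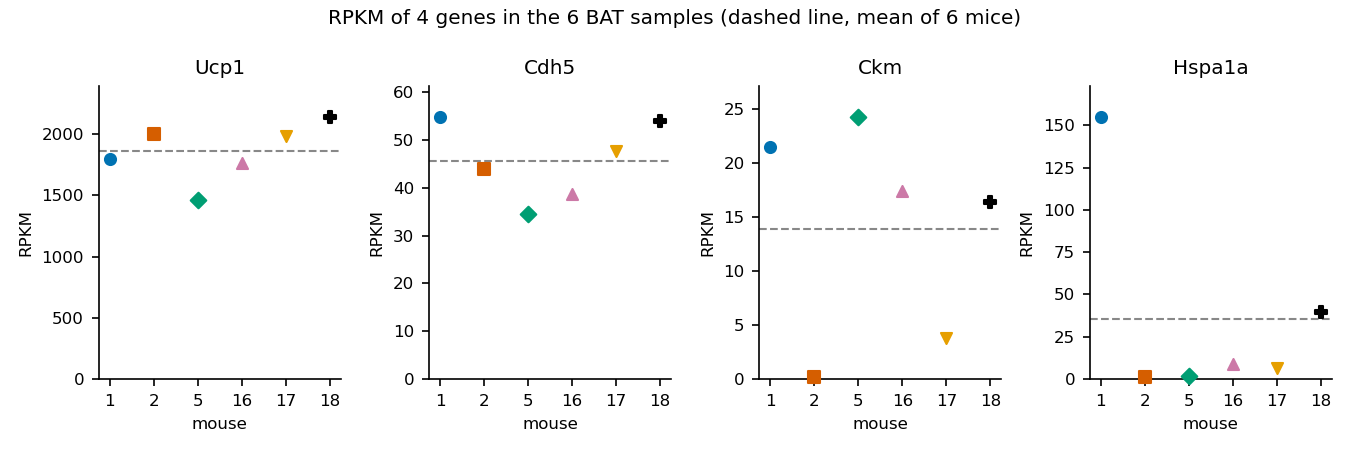
RPKM of Ucp1, Cdh5, Ckm and Hspa1a (y axis, linear, from 0) in each of the 6 BAT samples (x axis, mouse number); each point is 1 mouse and the dashed line is the mean of 6. The highest mouse was 1.46-fold above the lowest for Ucp1 and 1.59-fold for Cdh5, Ckm was near 0 in mouse 2, and Hspa1a was highest in mouse 1.

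Mitochondrial RNA was the most abundant product of the tissue. Of the 15 symbols with the highest mean RPKM, 8 lie on the mitochondrial genome and the other 7 are nuclear rows whose sequence matches it. The first was the row named COX2, at 49204 ± 5559 RPKM, followed by LOC100503946, LOC100503984 and COX3, with 46210.0 ± 5325 RPKM, 42404 ± 5957 RPKM and 37154 ± 2809 RPKM. These 4 rows do not lie on the mitochondrial genome but on chromosome 1. They overlap one another, and COX3 (chr1:24620027-24620810) lies wholly inside COX2 (chr1:24620027-24622404). The same read can therefore count in several of them. They are not 4 separate products, and the value under COX2 is not that of 1 gene. The stretch chr1:24618374-24623027 of mm9 (minus strand) aligned to bases 6390 to 11042 of the mitochondrial genome over 4654 aligned positions, with 2 mismatches and 1 gap (99.9% identity). It is a nuclear copy of mitochondrial DNA that starts within the gene of cytochrome c oxidase subunit 1, holds those of its subunits 2 and 3, of ATP synthase subunits 6 and 8 and of NADH dehydrogenase subunits 3 and 4L, and ends within that of NADH dehydrogenase subunit 4. The 2 base differences are shown here with their surroundings, since a read that does not cross 1 of them or the gap reads the same from both places. Capitals mark the base that differs.
mitochondrial genome, MT:6390-6432, plus strand: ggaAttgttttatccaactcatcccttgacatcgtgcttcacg
nuclear copy, chr1:24622985-24623027, minus strand: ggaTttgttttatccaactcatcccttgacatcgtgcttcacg
mitochondrial genome, MT:9421-9500, plus strand: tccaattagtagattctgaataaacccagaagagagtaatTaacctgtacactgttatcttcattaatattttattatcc
nuclear copy, chr1:24619917-24619996, minus strand: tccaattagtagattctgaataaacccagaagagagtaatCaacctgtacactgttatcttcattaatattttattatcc

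The reads of this stretch were counted almost wholly on the nuclear copy. The chromosome 1 rows LOC100503946 and ND4L held 14.3% to 19.1% of each mouse's total (mean 15.8% ± 1.91), whereas the rows of the mitochondrial genome that lie inside the copied interval held only 0.0616% to 0.165% as many reads as those 2 rows. The gene of NADH dehydrogenase subunit 3, for example, is listed as ND3 on the mitochondrial genome at a mean of 21.1 RPKM, beside 33757 RPKM for mitochondrial cytochrome b (ENSMUSG00000064370), which lies outside the copied interval. The values under COX2, COX3 and ND4L are therefore those of rows that 2 places in the genome share almost letter for letter, and the deposited counts do not tell them apart. The rows on the mitochondrial genome itself, without ND6, which shares its reads with ND5, held 15.4% to 21.1% of the total (mean 17.3% ± 1.98). Together, the mitochondrial rows and both chromosome 1 rows held 31.9%, 29.7%, 34.3%, 40.2%, 31.2% and 31.3% of the total. Mouse 16 was highest in each of these shares of the total. It was lowest, at 0.0616%, in the reads of mitochondrial rows inside the copied interval relative to the chromosome 1 rows.

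**Figure D2:**
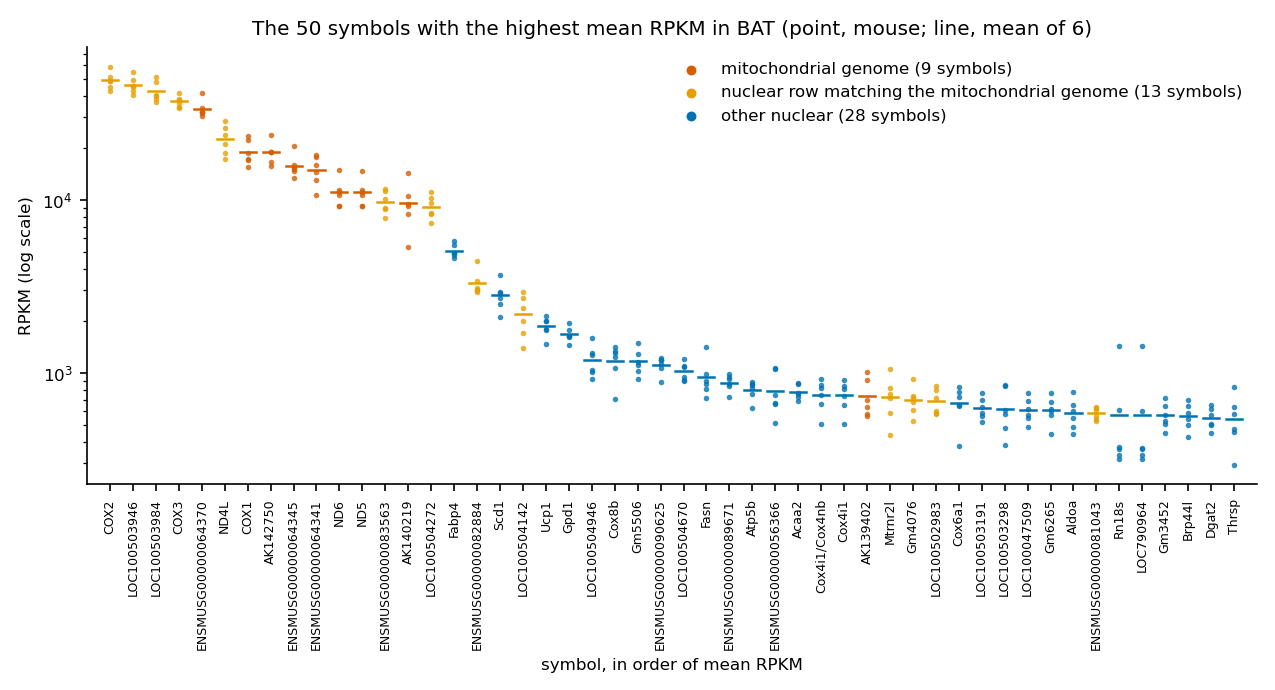
RPKM (y axis, log scale) of the 50 symbols with the highest mean (x axis, in order); points are the 6 mice and short lines their means, coloured by class. The first 15 symbols are rows of the mitochondrial genome or nuclear rows that match it, and Fabp4 is the first of the other nuclear symbols.

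Among nuclear genes that do not match the mitochondrial genome, genes of fatty acid handling and of heat production led. Fabp4, the fatty acid binding protein of adipocyte cytosol (chr3:10204342-10208576, minus strand), was highest, with 5456, 4615, 4943, 4772, 5808 and 4931 RPKM. Scd1, which puts the double bond into newly made fatty acids, followed with 2725, 3686, 2941, 2514, 2091 and 2906 RPKM, and here mouse 2 was highest and mouse 17 lowest. Ucp1 came next. Gpd1, which makes glycerol 3-phosphate for triglyceride and shuttles electrons to mitochondria, averaged 1673 ± 171 RPKM, and Cox8b, another cytochrome c oxidase isoform of muscle and brown fat, averaged 1174 ± 261 RPKM. Fasn, the enzyme that builds palmitate, averaged 946 ± 243 RPKM. Further down the order came Atp5b, the catalytic β-subunit of ATP synthase (798 ± 97.1 RPKM), Acaa2, the last enzyme of mitochondrial β-oxidation (778 ± 75.1 RPKM), Dgat2, which adds the last acyl chain of triglyceride (548 ± 75.9 RPKM), and Thrsp, a lipogenic regulator (544 ± 182 RPKM).

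Several high rows carry the name of a copy, not of the gene whose product they match. LOC100504946, at 1186 ± 244 RPKM, matched a transcript of Hadhb, the β-subunit of the mitochondrial trifunctional protein, at 99.8% over 1428 bases, whereas the row named Hadhb averaged 42.6 ± 4.32 RPKM. Gm5506 (1163 ± 199 RPKM) matched Eno1, an enzyme of glycolysis, at 99.5%, and the row named Eno1 averaged 63.5 ± 12.8 RPKM. Cytochrome c was a more extreme case: ENSMUSG00000058927 averaged 448 ± 49.03 RPKM and differs from Cycs by 1 base in 476 aligned, while Cycs itself was listed at 5.04 ± 0.507 RPKM. Gapdh, the glycolytic enzyme widely used as a reference gene, was listed at only 2.55 ± 0.516 RPKM, beside 423 ± 102 RPKM for Gm10481, which matches it at 99.8% over 1251 bases. The row ENSMUSG00000056366, named Fabp3-ps1 in GENCODE, averaged 783 ± 226 RPKM and Fabp3 itself 190.3 ± 49.9 RPKM. Among the 100 highest rows, only nuclear rows with a short span on the genome and no match to the mitochondrial genome were searched. Of these, 16 matched a transcript of another gene at 95% identity or more. The level of these gene products therefore cannot be read from either row alone. Rows with a longer span were not searched. The 16 include Gm3244/Gm3873 and Gm3873, which have the same coordinates. They also include LOC100047509 and Gm3452, which lie within the row of Brp44l, the gene they match. ENSMUSG00000090625, antisense to Gnas, and LOC100504670, in the span of the ferritin gene Fth1, also stood among the 30 highest, and as the use of strand in counting is not stated, their reads may include those of the gene they overlap.

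Pathways of fuel use were high and even among the animals. The 21 fatty acid oxidation genes in the files all reached 1 RPKM and summed to 3565 to 4659 RPKM, with Acaa2, Acadl (443 ± 43.9 RPKM) and Acadvl (427 ± 54.3 RPKM), both acyl-CoA dehydrogenases, at the top. The 17 citric acid cycle genes summed to 2418 to 2969 RPKM, with Cs, citrate synthase, at 201 ± 12.9 RPKM. Their median spread was 0.13, against 0.21 over all 12501 symbols, and that of fatty acid oxidation was 0.18. Among symbols with a mean of at least 100 RPKM, the 3 lowest spreads were those of Atp5c1, a subunit of ATP synthase, at 107 ± 4.81 RPKM, Aplp2 at 137 ± 7.53 RPKM, and Uqcrc2, a core subunit of complex III, at 204 ± 11.2 RPKM. Mouse 16 was lowest in 17 of the 21 fatty acid oxidation genes. The median of all 12501 symbols was also 0.20 lower in mouse 16 than the 6-mouse mean (log2). After TMM scaling, the median of mouse 16 over the fatty acid oxidation list moved from -0.23 to -0.01. The count of 17 was not repeated on that scale.

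Nearly all genes differed little among the 6 mice. The median spread was 0.21 on the log2 scale, and 95% of the symbols lay below 0.47. The SD that counting error alone would give had a median of 0.07. Only 63 symbols (0.504%) had a spread of at least 1, and 44 of them overlap the span of another symbol. In an edgeR fit of the counts with no groups, the common biological coefficient of variation was 16.7%. Sequencing lane was tested across genes. edgeR's quasi-likelihood test of lane 4 (4 mice) over lane 3 (2 mice) called 0 of 19243 genes at an adjusted p of 0.05, a background of 0%. At an unadjusted p of 0.05, edgeR had 372 genes and DESeq2, which called 0 as well, had 247. Limma on log2(RPKM + 0.1) called 1 of 20858, Snord45c, with a mean of 0 RPKM in lane 3 and 0.521 RPKM in lane 4. With genes of fewer reads kept in, edgeR called 122 of 36235. Lane and the mice in it cannot be told apart, and the 0 calls do not show that lane had no effect.

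**Figure D3:**
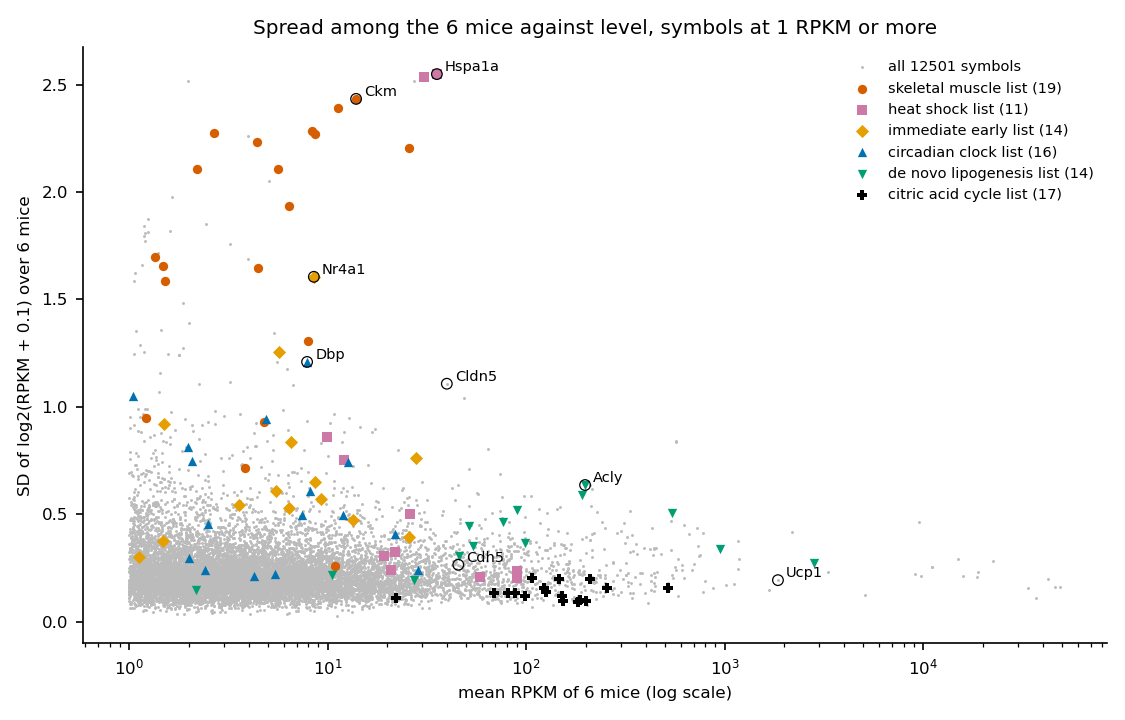
Spread of each symbol among the 6 mice (y axis, SD of log2(RPKM + 0.1)) against its mean RPKM (x axis, log scale) for all 12501 symbols at 1 RPKM or more; coloured symbols are members of 6 gene lists. Skeletal muscle genes and Hspa1a lie at the top, citric acid cycle genes at the bottom, and Ucp1 at 0.19.

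The 300 symbols with the highest spread were grouped by the correlation of their values over the 6 mice (1 - Pearson r, average linkage, tree cut at 0.3). This gave 9 groups of at least 10 symbols, which held 242 of the 300. The groups were made from these values, so they are a description and carry no test, and the last symbol inside and the first outside the 300 both had a spread of 0.577. They are described below by the animals in which they were high and low.

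Skeletal muscle genes formed the group with the widest spread, 41 symbols with a median pairwise r of 0.93. Ckm (chr7:19996443-20006932, plus strand), the creatine kinase of muscle cytosol, stood at 21.5, 0.2199, 24.2, 17.4, 3.79 and 16.4 RPKM. It was nearly absent in mouse 2, where it rested on 12 reads against 1002 in mouse 1, low in mouse 17, and between 16.4 and 24.2 RPKM in the other 4 animals. Acta1, the actin of skeletal muscle thin filaments, stood at 38.6, 0.806, 45.8, 34.96, 6.995 and 27.9 RPKM, in the same order of mice. Atp2a1, the calcium pump of the fast-fibre sarcoplasmic reticulum, stood at 16.6, 0.186, 21.6, 15.5, 2.91 and 10.9 RPKM. Myh4, the myosin heavy chain of the fastest fibres, stood at 11.4, 0.155, 21.05, 8.398, 2.91 and 7.88 RPKM, and both had the order of mice of Ckm. Of 22 genes in the muscle list, 19 reached 1 RPKM, 15 of these had a spread of at least 1, 18 were lowest in mouse 2 and 14 were highest in mouse 5. Their summed level ran from 17.3 RPKM in mouse 2 to 215 RPKM in mouse 5, and without mouse 2 the number with a spread of at least 1 was 9. Rows of other symbols inside muscle genes moved with them: LOC100503495 and A930016O22Rik overlap Ckm, and Ube2c overlaps the troponin gene Tnnc2.

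Within the muscle genes, the animals differed in more than amount. In the 5 mice other than mouse 2, the ratio of Tnni2, troponin I of fast fibres, to Ckm lay between 0.394 and 0.426, and that of Acta1 to Ckm between 1.70 and 2.01. The ratio of Myh1, the myosin heavy chain of intermediate fast fibres, to Ckm ran from 0.0258 to 0.334, a 12.9-fold range. Myh1 stood at 2.76, 0.0898, 5.56, 5.81, 0.0977 and 1.74 RPKM, with mouse 17 as low as mouse 2, although mouse 17 had 2.91 RPKM of Myh4. Myh2, of the oxidative fast fibres, was also low in mouse 17, at 3.19, 0.0399, 4.43, 4.08, 0.225 and 1.26 RPKM. Myl1, a light chain of fast myosin, did not follow the others: it stood at 13.7, 8.61, 10.4, 12.01, 8.92 and 11.7 RPKM and had 592 reads in mouse 2. Slow-fibre Myh7 averaged 0.2398 ± 0.2201 RPKM. Ckmt2, a muscle isoform of mitochondrial creatine kinase, stood at 0.8003, 0.0203, 0.995, 0.878, 0.0221 and 0.284 RPKM. Cox6a2, a muscle isoform of a cytochrome c oxidase subunit, stood at 2.35, 0.0787, 1.49, 2.45, 0.0428 and 1.11 RPKM, and mice 2 and 17 were lowest in both.

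A second group, of 41 symbols, held heat shock genes such as Hspa1a, immediate early genes such as Nr4a1, and 1 of the 14 listed endothelial genes, Cldn5. Hspa1a, an inducible Hsp70 chaperone, had the highest spread of all symbols (2.55), at 155, 1.42, 1.96, 9.202, 6.48 and 39.5 RPKM. Mouse 1 stood above all others, mouse 18 came next, and mice 2 and 5 were lowest. Hspa1b is a near copy of Hspa1a and overlaps it in the files, so their reads cannot be told apart. Dnajb1, the Hsp40 partner of Hsp70, stood at 25.05, 6.97, 5.91, 9.07, 11.1 and 14.4 RPKM, and Hsph1, of the Hsp110 family, which fell in another group, at 23.6, 4.696, 9.72, 5.44, 5.81 and 10.7 RPKM. Of the 11 heat shock genes, all reached 1 RPKM and 10 were highest in mouse 1. The exception was the mitochondrial chaperonin Hspd1, at 55.8, 60.1, 68.8, 45.8, 65.3 and 54.4 RPKM, which was highest in mouse 5.

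Immediate early genes are switched on within minutes by growth factors and stress. Nr4a1, an orphan nuclear receptor, stood at 26.1, 2.44, 0.925, 6.900, 5.63 and 9.16 RPKM. Atf3, a stress-induced transcription factor, stood at 19.8, 2.05, 1.77, 3.32, 2.43 and 4.61 RPKM, and in both mouse 1 was highest and mouse 5 lowest. Jun stood at 61.05, 23.7, 15.9, 19.8, 14.98 and 32.8 RPKM, again highest in mouse 1. Fos, the AP-1 partner of Jun, and Egr1, a zinc finger factor, were highest in mouse 18 instead. Fos, which fell in the group of Acly and Slc25a1, stood at 1.29, 0.6603, 0.799, 1.54, 0.719 and 4.03 RPKM. Egr1 stood at 8.604, 5.12, 2.73, 4.77, 3.84 and 14.2 RPKM. Of the 14 immediate early genes at 1 RPKM or more, 9 were highest in mouse 1 and 10 were lowest in mouse 5, and their median spread was 0.59. Cldn5, which fell in the group of Hspa1a and Nr4a1, is the claudin of endothelial tight junctions. It stood at 86.6, 20.8, 11.04, 22.2, 32.4 and 66.2 RPKM, and its spread of 1.11 was above that of every other endothelial gene in the list. Klf2, a flow-responsive factor of endothelium, stood at 38.3, 19.5, 10.8, 20.2, 24.3 and 28.5 RPKM. Cdh5 and Pecam1 had a spread of 0.26 and 0.19.

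The 250 bases before the start of the listed heat shock, immediate early and clock genes were searched in RefSeq promoters of GRCm38.p6. The search was for 1 form of the heat shock element, TTCNNGAA, on both strands, where it reads the same. It was found in 3 of the 8 heat shock genes that have a promoter in the table (Hsph1, Hspd1 and Hspe1) and in 8.11% of all 27025 genes. Of the 12501 symbols with a mean of at least 1 RPKM, 6792 have a promoter in the table, and 7.11% of these held it. The window of Hspa1a was searched and does not hold these letters, and Hsp90aa1, Hspa8 and Cryab were not searched. Other forms of the element were not searched for, so the result does not show that Hspa1a lacks one. The match before Hsph1 is shown since its gene differed among the animals, and 1 of 2 matches between Hspd1 and Hspe1, which are read in opposite directions from 1 shared stretch, since Hspd1 had another order of animals. Capitals mark the match.
Hsph1, chr5:149636342-149636389, minus strand: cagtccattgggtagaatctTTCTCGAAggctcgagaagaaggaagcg
Hspe1, chr1:55088039-55088086, plus strand: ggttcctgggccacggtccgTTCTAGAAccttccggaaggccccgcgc
The matches are descriptions of sequence, and binding was not measured. The cAMP response element TGACGTCA was in 1.77% of all genes and 3.25% of the 6792 at 1 RPKM or more. It was in 2 of 14 immediate early promoters (Dusp1 and Btg2), 1 of 14 clock promoters (Hlf) and 0 of 8 heat shock promoters. In these promoters, matches of different motifs did not overlap.

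Several clock genes split the animals into mice 2 and 5 on the one hand and mice 1, 16, 17 and 18 on the other. In the mammalian clock, the factors BMAL1 (Arntl) and CLOCK drive the Per and Cry repressors and the Nr1d and Dbp families, so that Arntl and Dbp peak at opposite times of day. Dbp, a D-box activator, stood at 3.98, 14.95, 17.5, 5.05, 3.91 and 1.93 RPKM, with mice 5 and 2 far above the others and mouse 18 lowest. Per3, Tef and Nr1d2 had the same pair on top, with mouse 18 lowest in each. Per3, a repressor of the clock, stood at 1.28, 3.31, 3.84, 1.42, 1.13 and 0.918 RPKM. Tef, another D-box activator, stood at 10.2, 19.97, 22.1, 9.55, 8.901 and 5.62 RPKM. Nr1d2 (REV-ERBβ), a nuclear receptor that represses Arntl, stood at 12.5, 16.2, 17.7, 9.48, 8.898 and 7.38 RPKM. Per2 was also highest in mice 2 and 5 and lowest in mouse 18, at 1.94, 3.22, 3.12, 1.56, 1.85 and 0.705 RPKM. Arntl went the other way, at 1.35, 0.435, 0.191, 1.02, 1.56 and 1.695 RPKM, as did Nfil3, a D-box repressor, at 11.8, 5.51, 4.03, 7.06, 11.1 and 9.68 RPKM, with mouse 5 lowest in both and mouse 2 next. Per1, unlike Per2 and Per3, was low in mice 2 and 5, at 8.02, 2.04, 1.602, 5.79, 7.09 and 4.98 RPKM. Nr1d1 (REV-ERBα), which shares its span with a combined Thra/Nr1d1 row, did not divide the animals in this way, at 32.6, 30.9, 24.1, 32.04, 21.7 and 29.5 RPKM. Of the 16 clock genes at 1 RPKM or more, the median spread was 0.50 and 2, Dbp and Arntl, had a spread of at least 1.

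Dbp, Per3 and Tef fell in 1 group of 29 symbols, whose median was 0.82 higher in mouse 2 and 0.74 higher in mouse 5 than the 6-mouse mean (log2). It also held genes of lipid and drug metabolism. Ehhadh, the bifunctional enzyme of peroxisomal β-oxidation, stood at 8.15, 18.6, 17.9, 5.602, 15.8 and 6.63 RPKM. Gyk, glycerol kinase, stood at 12.1, 29.9, 19.8, 14.8, 27.1 and 10.2 RPKM. In both, mouse 17 was high along with mice 2 and 5. Cyp2b10, a drug-metabolizing cytochrome P450, stood at 0.359, 0.9698, 4.36, 0.372, 0.668 and 0.417 RPKM, high in mouse 5 alone. Arntl, Per1 and Nfil3 fell in a different group, of 55 symbols, which was lowest in mouse 5 (median -1.29) and near the mean in mouse 2 (-0.08). Clock promoters were searched on both strands for the D-box TTANGTAA and the E-box CACGTG. The D-box was in 1 of 14 clock genes with a promoter in the table (2.44% of all genes). The E-box was in 4 of them, Per1, Cry1, Tef and Bhlhe41. It was in 6.86% of all genes and in 10.5% of the 6792 at 1 RPKM or more with a promoter. The E-box was also in 2 of 8 heat shock genes and 3 of 14 immediate early genes, so it was not particular to the clock list. Both windows of Per3, 1 of 2 of Tef and that of Per1 are shown because Per3 and Tef were higher, and Per1 lower, in mice 2 and 5. Capitals mark the match.
Per3, D-box, chr4:151044843-151044890, minus strand: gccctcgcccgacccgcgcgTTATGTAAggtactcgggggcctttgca
Per3, D-box, chr4:151044796-151044843, minus strand: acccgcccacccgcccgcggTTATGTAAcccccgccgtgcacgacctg
Tef, E-box, chr15:81802526-81802571, plus strand: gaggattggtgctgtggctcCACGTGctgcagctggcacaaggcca
Per1, E-box, chr11:69098763-69098808, plus strand: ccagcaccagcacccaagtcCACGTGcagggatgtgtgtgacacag

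The other groups were smaller or rested on fewer reads. The group of 55 symbols lowest in mouse 5 also held Actb and Cebpb, a transcription factor of adipocyte differentiation (45.2 ± 15.5 RPKM), and 15 of its rows are shorter than 300 bases. A group of 21 symbols was lowest in mouse 16 (median -1.34), and 19 of them averaged fewer than 50 reads. A group of 12 was highest in mice 1 and 18 and lowest in mouse 17, and it held Hsph1, Ctgf, a matricellular growth factor (1.91 ± 0.818 RPKM), and Ccl2, a monocyte chemokine (1.64 ± 0.636 RPKM). A group of 11, highest in mouse 1, held the AP-1 factor gene Junb (5.51 ± 2.36 RPKM) and Irs2, a docking protein of the insulin receptor (1.39 ± 0.769 RPKM). The last, of 10 symbols, was lowest in mouse 18 (median -0.96) and held Per2 and Cish, an inhibitor of cytokine signalling (2.27 ± 1.27 RPKM).

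**Figure D4:**
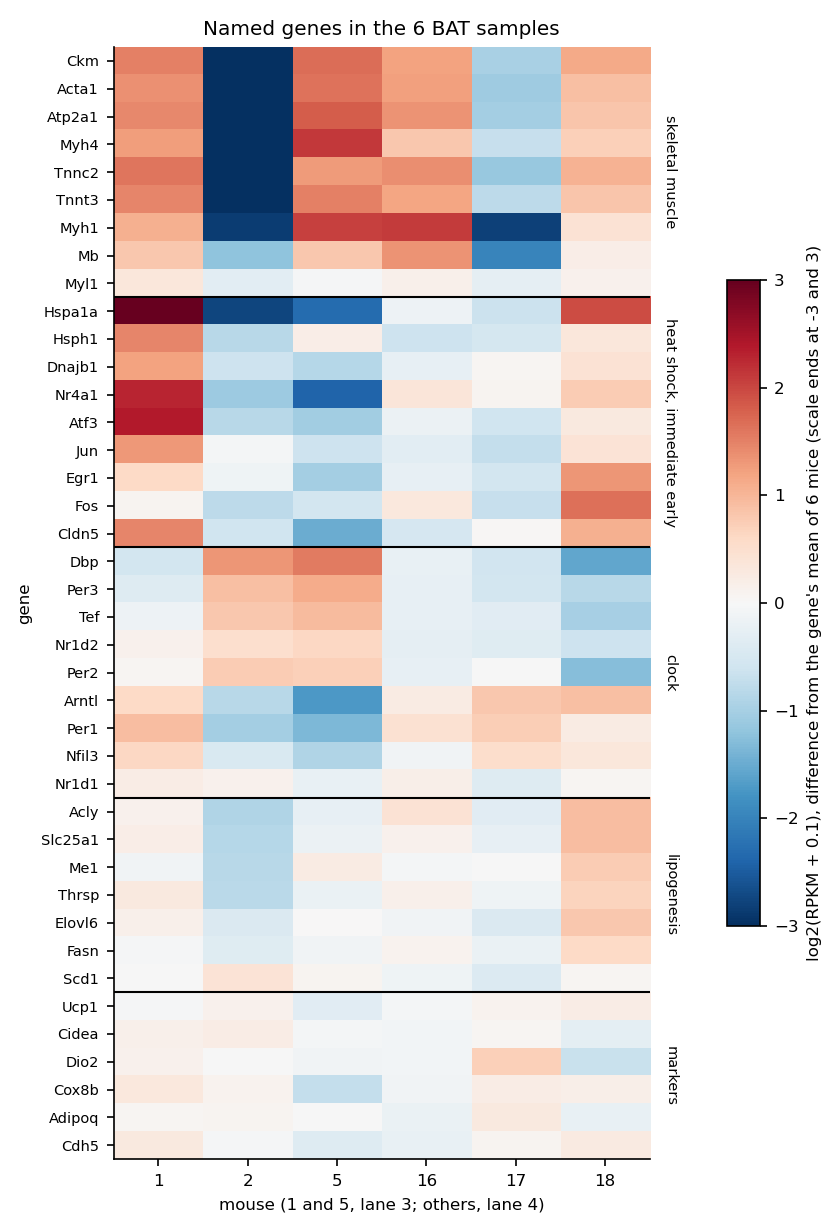
Difference of log2(RPKM + 0.1) from the gene's mean over the 6 mice (colour, red above and blue below, scale ends at -3 and 3) for named genes (rows, in 5 sets) in each mouse (columns). Muscle genes other than Mb (myoglobin) are lowest in mouse 2, heat shock and immediate early genes are highest in mouse 1 or 18, and Dbp, Per3 and Tef are high where Arntl and Per1 are low.

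Genes of fatty acid synthesis differed together, with mouse 18 highest and mouse 2 lowest. Acly, which makes cytosolic acetyl-CoA from citrate, stood at 200.3, 98.6, 154, 246, 144 and 346 RPKM, and Slc25a1, the mitochondrial carrier that exports citrate, at 206, 98.9, 158, 194, 151 and 341 RPKM. The highest mouse was 3.51-fold above the lowest for Acly and 3.45-fold for Slc25a1, and both fell in 1 group of 22 symbols. Fasn stood at 899.6, 713, 864, 988, 804 and 1404 RPKM. Me1, the malic enzyme that supplies NADPH, stood at 79.3, 47.8, 101, 82.3, 83.9 and 144 RPKM. Thrsp stood at 636, 295, 454, 577, 473 and 829 RPKM, and all 3 had mouse 18 at the top and mouse 2 at the bottom. Of 14 lipogenic genes at 1 RPKM or more, 10 were highest in mouse 18 and 8 lowest in mouse 2, and the list summed to 4037 to 6497 RPKM. Scd1 and Srebf1, which encodes the lipogenic factor SREBP1, were highest in mouse 2 instead. The 15 cholesterol synthesis genes at that level were low, at most 37.8 RPKM on average (Insig1), and 12 of them were highest in mouse 18. Elovl3, which elongates very long fatty acids in brown fat, had the order of Acly at its ends, with 28.01, 13.03, 20.9, 23.3, 25.5 and 41.2 RPKM.

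Many nuclear genes of the respiratory chain and the ribosome were lowest in mouse 5 and highest in mouse 1, the 2 animals of lane 3. Cox8b stood at 1415, 1228, 703, 1059.5, 1340.2 and 1299 RPKM. Cox6a1, another subunit of cytochrome c oxidase, stood at 832, 651, 376, 643, 773 and 719.7 RPKM, with the same order of the highest and lowest mice. Mouse 5 was lowest in 13 of 16 genes of complex IV and mouse 1 highest in 13, and the median over these genes was 0.47 below the 6-mouse mean in mouse 5 (log2), or 0.42 below it with TMM scaling. In complex I, 30 of 37 genes were lowest in mouse 5, and so were 61 of 79 ribosomal protein genes. The share of all symbols that were lowest in mouse 5 was not counted. Transcript length went with the same animals. In the fifth of symbols with the shortest rows (68 to 1244 bases), the median was 0.19 below the 6-mouse mean in mouse 5 and 0.15 above it in mouse 1. In the fifth with the longest rows (6847 to 47002 bases), it was 0.03 above and 0.01 below. The part of transcript length in the result was not tested. Actb, the cytoskeletal actin used as a reference gene, was also low in mouse 5, at 274, 178, 90.2, 245, 225 and 282 RPKM.

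**Figure D5:**
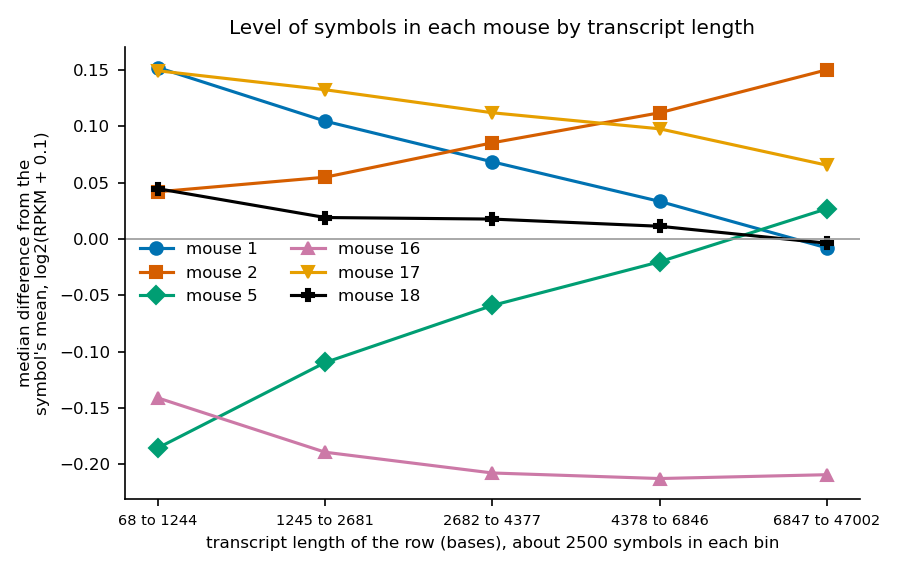
Median difference from the symbol's 6-mouse mean on the log2(RPKM + 0.1) scale (y axis) in 5 bins of transcript length (x axis, about 2500 symbols each), 1 line per mouse. The lines of mice 5 and 2 run upward with length and those of mice 1 and 17 downward, and mouse 16 lies below 0 in every bin.

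Mouse 16 had both the highest share of mitochondrial reads and the lowest median over all symbols, and TMM scaling, which divides its RPKM by 0.862, brought that median to 0.01. On the TMM scale the median over macrophage genes was still 0.34 below the 6-mouse mean in mouse 16, and that of MHC class II genes 0.37 below it there and 0.41 below it in mouse 5 (log2). Red blood cell genes were highest in mouse 16 on both scales. Hba-a1 stood at 435, 436, 236, 571, 491 and 415 RPKM and Alas2, the heme synthesis enzyme of red cell precursors, at 3.77, 3.75, 2.38, 4.73, 3.98 and 3.78 RPKM, with mouse 5 lowest in both. The 5 blood genes at 1 RPKM or more had the same highest and the same lowest animal.

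Immune genes spread more than most, with a median of 0.39 over the macrophage list and 0.45 over the MHC class II list, against 0.21 over all symbols. Lyz2, lysozyme of macrophages, stood at 26.8, 39.5, 31.3, 19.7, 39.5 and 37.2 RPKM, and 7 of 9 macrophage genes were lowest in mouse 16. Cd74, the invariant chain of MHC class II, averaged 29.3 ± 8.19 RPKM, and H2-Eb1 and H2-Ab1 averaged 14.4 ± 4.79 RPKM and 14.5 ± 4.82 RPKM. All 6 class II genes at 1 RPKM or more were highest in mouse 17. Fibroblast genes were highest in mouse 2 in 7 of 9 cases, with Gsn, an actin-severing protein, at 72.9 ± 19.4 RPKM. Mbp, a protein of myelin, had a spread of 0.08 and averaged 3.23 ± 0.179 RPKM. S100b, a calcium-binding protein of glia and of brown adipocytes, averaged 57.2 ± 5.195 RPKM.

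Secreted products varied one by one. Vegfa, the angiogenic growth factor, averaged 55.8 ± 6.94 RPKM, Angptl4, an inhibitor of lipoprotein lipase, 43.8 ± 14.8 RPKM, and Nrg4, a brown fat growth factor that acts on liver, 11.9 ± 2.08 RPKM. Gdf15, a stress hormone that acts on the hindbrain, had the highest spread of the 7 batokine genes at 1 RPKM or more (1.21), at 9.75, 12.99, 2.099, 3.67, 1.402 and 3.61 RPKM, with mice 1 and 2 above the others. Fgf21 was near the cutoff at 1.28 ± 0.449 RPKM, and Il6 averaged 0.00894 RPKM. Lep, leptin, averaged 64.8 ± 8.57 RPKM, and Cfd, adipsin, stood at 39.6, 38.7, 17.96, 19.3, 19.7 and 16.3 RPKM, with mice 1 and 2 again highest. Creatine cycle genes were low, with Ckb at 7.28 ± 1.61 RPKM, and Ckmt1 had at most 3 reads in any animal. Proliferation genes were near or under 1 RPKM, with Pcna, the sliding clamp of DNA synthesis, highest at 2.75 ± 0.2505 RPKM and Mki67 at 0.523 ± 0.119 RPKM.

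Pairs of genes chosen as markers were compared across the 6 mice by exact two-sided permutation, with Benjamini-Hochberg adjustment over 12 pairs. The pairs were chosen with earlier results of these data known. Ckm, Acta1 and Myh4 also fell in the same group made from these values, so their p-values are no independent test of that grouping. Ckm went with Acta1 (Pearson's r = 0.998, permutation p = 0.00139, the smallest that 6 mice can give, adjusted p = 0.00556; Spearman's rho = 1, permutation p = 0.00278, adjusted p = 0.0111). Without mice 2 and 17, which lie farthest from the median of Ckm, r was 0.94. Ckm and Myh4 gave r = 0.989 (permutation p = 0.00139, adjusted p = 0.00556) and rho = 1 (permutation p = 0.00278, adjusted p = 0.0111), with r = 0.95 without those animals. Fasn and Acly gave r = 0.953 (permutation p = 0.00139, adjusted p = 0.00556) and rho = 1 (permutation p = 0.00278, adjusted p = 0.0111), with r = 0.96 without mice 2 and 18. Cdh5 and Pecam1 passed by r (0.918, permutation p = 0.0139, adjusted p = 0.0417) but not by rho (0.886, permutation p = 0.0333, adjusted p = 0.1), and r was 0.96 without mice 1 and 5. Within the 4 mice of lane 4, r of these 4 pairs was 0.998, 0.996, 0.964 and 0.960, and lane 3 holds too few mice to give a value. When the mice were left out 1 at a time, 0 to 3 of the 4 pairs passed, and none did without mouse 5 or mouse 17. With 5 animals there are fewer permutations. In both cases Ckm with Acta1 and with Myh4 had a permutation p of 0.00833, the smallest that 5 mice can give, and an adjusted p of 0.05. Without mouse 5 and mouse 17, adjusted permutation p was 0.05 and 0.1 for Fasn and Acly. For Cdh5 and Pecam1 it was 0.05 and 0.2.

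No other pair passed. Ucp1 with Cidea gave r = -0.0693 (permutation p = 0.904; rho = 0.0286, permutation p = 1), with Adipoq 0.0618 (permutation p = 0.924; rho = 0.0286, permutation p = 1), and with Ckm -0.471 (permutation p = 0.351; rho = -0.771, permutation p = 0.103). With Cdh5, r was 0.745 (permutation p = 0.0792, adjusted p = 0.19; rho = 0.6, permutation p = 0.242) and 0.0692 without mice 5 and 18. Arntl and Nr1d1 gave 0.161 (permutation p = 0.79; rho = -0.0857, permutation p = 0.919), Lep and Adipoq 0.211 (permutation p = 0.7; rho = -0.0857, permutation p = 0.919), and Ckm and Cdh5 -0.0382 (permutation p = 0.964; rho = -0.2, permutation p = 0.714). Of the pairs given here, Ucp1 and Cdh5 had the lowest adjusted p by r, and the others ran from 0.703 to 0.964, while adjusted p by rho ran from 0.247 to 1. Within lane 4, r of Ucp1 was -0.192 with Cidea, 0.132 with Adipoq, -0.202 with Ckm and 0.942 with Cdh5. There, r was -0.504 for Arntl and Nr1d1, 0.666 for Lep and Adipoq and 0.105 for Ckm and Cdh5. A p above 0.05 from 6 animals does not show that these genes are unrelated.

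The symbols most like each marker were ranked by r over the 6 mice among all symbols at 1 RPKM or more, as a description with no test. For Ckm the first 5 were LOC100503495, Tnnt3, Tnni2, Acta1 and Atp2a1, with r of 0.998 to 0.999. For Ucp1 they were Bola1, ENSMUSG00000087304, ENSMUSG00000081643, ENSMUSG00000087286 and Ppap2a, with r of 0.976 to 0.990, and none of the 20 listed brown adipocyte genes was among them. For Cdh5 they were AK088841, 0610009E02Rik, which overlaps Notch1, Cdc34, Gm13202 and Maml1, with r of 0.990 to 0.996. These are the highest values among 12501 symbols over 6 points.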

How the data were processed

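RNA of whole BAT of 6 mice was sequenced with NEBNext Ultra libraries. The deposited files hold, for each transcript row of mm9 (NCBIM37), a read count made by the authors, a whole number of reads, and an RPKM value, which the authors derived from that count. HISAT2 2.1.0 and cutadapt 1.16 appear in the submitters' processing notes. The counting program, its use of strand and what it did with multi-mapping reads are not given in the sources used here. Samples were grouped by the source name in the labels. The 6 samples are different mice by their titles, and counting errors do not cover duplication by PCR.

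For each of 52093 symbols, 1 row was kept, that whose RPKM averaged highest across the 18 samples. Spread was the SD of log2(RPKM + 0.1), and differences from a mean are on this scale, which understates the changes of low genes. Counts were tested for lane with edgeR 4.0.16 (glmQLFit and glmQLFTest, TMM, mean count of at least 10, two-sided, Benjamini-Hochberg over all genes, threshold 0.05) in R 4.3.3. On simulated counts, this test recovered 57 of 99 genes changed by 1 and 73 of 82 changed by 2 on the log2 scale, with 12.2% false calls. On the real counts, 372 of 19243 genes had an unadjusted p under 0.05 in this edgeR test, fewer than evenly spread p-values would give. The recovery on simulated counts may therefore overstate what the test could detect in these mice. Alternatives were DESeq2 1.42.0, limma 3.58.1, other scalings, filters, pseudocounts and cutoffs, and leaving out each mouse. Correlations of 12 pairs were tested by exact permutation (scipy 1.17.1). Promoters were those of RefSeq for GRCm38.p6, matched by symbol, and their coordinates are not those of mm9.

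Named genes were the 25 highest by mean RPKM, the 25 highest by spread, up to 3 by mean and 3 by spread in each gene list, up to 8 by mean in each group of the 300, the 5 most like Ucp1, Ckm and Cdh5, and the marker genes. Others were named after their values were seen. Members, gene lists and pairs were chosen with earlier results of these data known. No test against another tissue was made. Values of some genes, among them 1 of the 12 pairs, are not reported here.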

Additional observations from a re-analysis of the deposited data

Results flagged for a closer look

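A single animal stood apart from the other 5, by Dixon's ratio of its gap to the whole range and its 95% critical value for 6 values, in 9 of 72 sets of values. Chance marks about 1 in 20 sets chosen without regard to their values, but most of these genes were chosen for a wide spread or after their values were seen and vary together, so the count of 9 has no chance level to be set against. In 5 of them, mouse 1 was far above the others: Hspa1a (ratio 0.751), Hsph1 (0.683), Nr4a1 (0.673), Atf3 (0.843) and the summed RPKM of the heat shock list (0.709, at 722.5 RPKM). Fos stood apart in mouse 18 (0.740), the 18S ribosomal RNA Rn18s in mouse 17 (0.742) and the drug-metabolizing enzyme Cyp2b10 in mouse 5 (0.847). The share of reads on mitochondrial genome rows stood apart in mouse 16 (0.699), at 21.1% of the total.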

How the results depend on the processing

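The number of symbols past the cutoff was 20858 at 0.1 RPKM and 2949 at 10 RPKM, against 12501. Leaving out mitochondrial rows and their nuclear matches, an alternative chosen after seeing the data, kept 8 of the 25 most abundant symbols. This number follows from the removal itself, since 8 of the 25 lie on the mitochondrial genome and 9 match it. Under the other alternatives 20 to 25 remained. The 63 symbols with a spread of at least 1 became 26 with a pseudocount of 1, 226 and 9 with a mean of at least 0.1 and 10 RPKM, and, with filters also chosen after seeing the data, 19 for symbols that overlap no other and 41 for a mean of at least 50 reads. Of the 25 with the highest spread, 7 remained at 10 RPKM and 6 without overlaps, and 12 to 24 when 1 mouse was left out. Of the 15 muscle genes with such a spread, 3 were still counted at 10 RPKM and 6 without overlaps. The filters by mean RPKM, overlap and reads change only which symbols are counted, and each symbol keeps its spread (Ckm 2.43 under each). When 1 mouse was left out, 9 (without mouse 2) to 17 muscle genes had such a spread. With 200 symbols clustered, the groups of Arntl, Hspa1a, Dbp and Acly kept 24, 27, 14 and 10 members together. With the tree cut at 0.2, those of Hspa1a and Dbp kept 22 and 11. The group lowest in mouse 16 kept 10 of its 21 members with 500 symbols, 0 at 0.2, 0 with a pseudocount of 1 and 12 with TMM. With 1 mouse left out, the members kept together ran from 8 to 53 for Arntl, 14 to 40 for Hspa1a, 10 to 25 for Dbp, 7 to 20 for Acly and 1 to 18 for the group lowest in mouse 16; that of Ckm kept 32 to 41. The lowest of these were reached without mouse 5, 1, 2, 18 and 16, in that order. Of the 4 pairs that passed, 0 passed in lane 4 alone and 0 to 3 with 1 mouse left out. Fewer mice allow fewer permutations. In lane 4, Ckm and Acta1 had a permutation p of 0.0417, the smallest that 4 mice can give, and an adjusted p of 0.167. The count of 0 in lane 4 therefore decides nothing about these pairs. Pairs that had not passed changed sign: Ucp1 and Adipoq with TMM (-0.418), Ckm and Cdh5 with TMM (0.243) and in lane 4 (0.105), and Arntl and Nr1d1 in lane 4 (-0.504). With 1 mouse left out, r ran from -0.34 to 0.644 for Ucp1 and Cidea, -0.212 to 0.516 for Ucp1 and Adipoq, -0.244 to 0.303 for Ckm and Cdh5, -0.375 to 0.736 for Arntl and Nr1d1 and -0.103 to 0.409 for Lep and Adipoq. The lane test called 122 genes with no filter beyond 1 read and 1 with limma, against 0. Beyond the symbols that a filter adds or removes and the number of permutations, the causes of these changes were not tested. No paired analysis was possible because only 1 group, of 6 different mice, was analysed.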

Other observations

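Interferon-induced genes were higher in mouse 5 than in the other animals in 7 of the 11 cases at 1 RPKM or more. Ifit3, of the antiviral IFIT family, stood at 1.76, 3.28, 4.39, 2.68, 2.21 and 2.57 RPKM in mice 1, 2, 5, 16, 17 and 18, and Ifit2 at 1.52, 2.37, 2.85, 1.63, 1.63 and 2.12 RPKM, so that mouse 5 was highest and mouse 1 lowest in both. The median of the list in mouse 5 was 0.39 above the 6-mouse mean (log2), and 0.44 above it with TMM scaling. Bst2, another antiviral gene and the most abundant of the list, did not share this order, at 13.1, 12.9, 9.99, 9.57, 10.1 and 9.37 RPKM.

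Glucocorticoid-induced and acute phase genes had no common order. Hp, haptoglobin, was both abundant and even, at 413 ± 25.01 RPKM. Pdk4, a kinase that blocks pyruvate oxidation, averaged 316 ± 74.9 RPKM and was highest in mouse 2. Tsc22d3 (GILZ), a glucocorticoid target, stood at 8.95, 5.57, 4.85, 6.88, 11.5 and 6.499 RPKM, with mouse 17 highest and mouse 5 lowest, and Cdkn1a, the cell cycle inhibitor p21, at 20.7, 6.84, 7.29, 16.9, 33.7 and 18.9 RPKM. The metallothionein gene Mt2, which binds zinc, was highest in mouse 5, at 7.69, 8.86, 21.7, 8.704, 16.5 and 8.28 RPKM. Genes of endoplasmic reticulum stress had a median spread of 0.24, and Hspa5 (BiP), the chaperone of that compartment, averaged 44.2 ± 4.87 RPKM.

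Some single genes with a wide spread belong to no list. 8430408G22Rik (Depp), a gene named for its induction in decidua, stood at 27.3, 21.6, 16.1, 85.02, 86.5 and 54.3 RPKM, and mice 16, 17 and 18 did not overlap mice 1, 2 and 5. This split was noticed in the values and was not tested, and how many other symbols split the animals in the same way was not counted. Rn18s, the 18S ribosomal RNA left in the libraries, stood at 364, 371, 334, 319, 1430.1 and 605 RPKM, with mouse 17 highest.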
